A study of Homo sapiens with 24 samples.

Results

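The plasminogen activator system and the tissue inhibitors of metalloproteinases (TIMPs) are represented here by 8 genes, PLAU, PLAT, PLAUR, SERPINE2, TIMP1, TIMP2, TIMP3 and TIMP4, measured in T-47D cells, a luminal, estrogen receptor positive human breast cancer line. The members were taken as every probe set that the platform annotation pairs with one of these symbols and no other, which gave 9 of the 28536 probe sets of an Affymetrix Human Gene 1.0 ST Array, with 1 probe set per gene and 2 for TIMP3. There were 24 arrays in 8 groups of 3 biological replicates. The groups were parental T-47D cells, cells given a non-target control RNAi duplex (NTC), and cells given one of 2 duplexes against P-Rex1 (P-Rex1 RNAi #1 or #2), each without and with heregulin (HRG). HRG is the ligand of the ErbB3 receptor, and P-Rex1 is a Rac nucleotide exchange factor that acts downstream of it. All cells were serum starved, then received HRG at 20 ng/ml or PBS vehicle for 6 h. The duplexes were transfected transiently, so the silenced cells were a transfected population of 1 cell line and not a stable clone. Levels are log2 values on the scale of robust multi-array averaging (RMA), on which a difference of 1 is a 2-fold change. A change is called here when limma's adjusted p was under 0.05 and the fold change above 1.5.

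Plasminogen activators are serine proteases that convert plasminogen to plasmin at cell surfaces and in the matrix. Urokinase (PLAU) does so bound to its receptor (PLAUR), tissue-type activator (PLAT) does so mainly on fibrin, and SERPINE2, also called protease nexin 1, is a secreted serpin that inhibits both activators, thrombin and plasmin. Plasmin can in turn activate matrix metalloproteinases, and the TIMP proteins bind and inhibit those enzymes. TIMP1 and TIMP2 are soluble, TIMP2 also takes part in the activation of pro-MMP2 at the cell surface, TIMP3 is bound to the matrix and also inhibits ADAM and ADAMTS proteases, and TIMP4 is the member with the most restricted tissue distribution. In breast cancer this system is best known for its part in invasion.

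For the 4 genes with the clearest response to HRG, the 250 bases before each start site listed by RefSeq (GRCh38.p14) are shown so that the reader can see what the regulated genes carry next to their starts. Capitals mark matches, on either strand, to TGANTCA (the AP-1 consensus), TGAGTAA (a variant of it) or AGGAAG (a PEA3/ETS motif), and each sequence is written 5′ to 3′ on the gene's strand.
TIMP1, chrX:47582186-47582435, plus strand: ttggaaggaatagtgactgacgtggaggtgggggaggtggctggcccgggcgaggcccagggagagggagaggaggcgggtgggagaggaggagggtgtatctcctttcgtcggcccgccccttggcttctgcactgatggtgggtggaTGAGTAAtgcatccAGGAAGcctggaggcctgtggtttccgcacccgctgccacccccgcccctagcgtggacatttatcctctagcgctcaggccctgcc
PLAUR, chr19:43670170-43670419, minus strand: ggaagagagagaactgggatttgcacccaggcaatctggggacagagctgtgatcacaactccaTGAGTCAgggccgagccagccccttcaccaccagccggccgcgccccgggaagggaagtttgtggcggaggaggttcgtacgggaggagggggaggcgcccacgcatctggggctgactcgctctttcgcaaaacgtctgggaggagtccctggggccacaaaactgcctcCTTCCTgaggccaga
PLAU start 1, chr10:73910360-73910609, plus strand: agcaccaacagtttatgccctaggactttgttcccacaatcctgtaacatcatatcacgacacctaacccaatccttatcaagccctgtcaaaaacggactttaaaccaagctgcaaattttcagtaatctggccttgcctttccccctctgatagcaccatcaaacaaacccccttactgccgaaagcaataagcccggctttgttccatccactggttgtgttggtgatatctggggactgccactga
PLAU start 2, chr10:73910882-73911131, plus strand: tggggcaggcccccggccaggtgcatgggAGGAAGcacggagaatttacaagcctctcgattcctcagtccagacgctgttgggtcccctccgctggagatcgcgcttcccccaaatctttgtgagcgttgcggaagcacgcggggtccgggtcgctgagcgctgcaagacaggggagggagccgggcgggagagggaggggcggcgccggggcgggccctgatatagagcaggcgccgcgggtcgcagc
SERPINE2 start 1, chr2:224038641-224038890, minus strand: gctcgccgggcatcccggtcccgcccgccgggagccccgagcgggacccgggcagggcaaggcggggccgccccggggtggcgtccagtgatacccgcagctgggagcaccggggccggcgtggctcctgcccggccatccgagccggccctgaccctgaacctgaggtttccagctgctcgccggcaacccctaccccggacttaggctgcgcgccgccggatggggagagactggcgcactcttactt
SERPINE2 start 2, chr2:224031479-224031728, minus strand: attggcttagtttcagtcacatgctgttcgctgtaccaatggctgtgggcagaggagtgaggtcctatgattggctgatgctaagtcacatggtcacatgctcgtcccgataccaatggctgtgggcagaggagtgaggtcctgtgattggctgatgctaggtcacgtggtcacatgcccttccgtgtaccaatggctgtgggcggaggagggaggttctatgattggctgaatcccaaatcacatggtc

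The TIMP1 window held TGAGTAA at -101 to -95 and AGGAAG at -87 to -82 from the start, and the PLAUR window held TGAGTCA at -186 to -180 and the PEA3/ETS motif on the other strand at -15 to -10. The window of the second PLAU start held AGGAAG at -221 to -216. No match to these 3 motifs was found in the window of the first PLAU start or in either SERPINE2 window. The TIMP3 and TIMP4 windows, not printed, were searched too. TIMP4, which was not called with HRG in any population, held AGGAAG at -76 to -71, and TIMP3 held no match. Over all 35116 windows of this length in the table, TGANTCA was present in 6.57%, TGAGTAA in 2.21% and AGGAAG in 28.7%. None of these motifs overlap each other in the windows shown. A match is a description of the letters, not a site of binding.

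The arrays fitted their labels for P-Rex1 itself. PREX1 averaged 10.60 (SD 0.02) in parental and 10.42 (SD 0.09) in NTC cells without HRG, against 8.99 (SD 0.09) with P-Rex1 RNAi #1 and 9.0 (SD 0.03) with #2, n = 3 each. With HRG, PREX1 was 9.55 in parental and 9.45 in NTC cells, so it fell with HRG as well, by 1.05 and 0.97 on the log2 scale, and was 8.53 with #1 and 8.73 with #2. PREX1 was thus lower in silenced than in control cells by 2.87-fold (#1) and 2.85-fold (#2) without HRG and by 1.96-fold and 1.70-fold with it. Array medians lay between 6.04 and 6.18. Replicate 3 of parental vehicle, replicate 3 of NTC with HRG, replicate 2 of #1 vehicle and replicate 3 of #2 with HRG stood apart on the second principal component, and values without these 4 arrays are given where they change a call. The 12 luminal epithelial markers measured had list means of 10.73 to 10.91 over the groups, and none of them lay in the dimmest 25% of the arrays. The list means of fibroblast markers (10 genes, 4.96 to 5.20), leukocyte markers (9 genes, 4.62 to 4.74) and endothelial markers (8 genes, 4.97 to 5.09) lay below the array medians in every group, with DCN, FAP, POSTN, PTPRC, MS4A1, LYZ and PECAM1 below 4.27, the lowest 25% quantile of any array. COL1A1 (7.43), LUM (6.56), CD68 (6.51) and CLDN5 (6.43) of these lists had mean levels above the array medians. Single markers did move with HRG in parental cells: ESR1, PGR and ERBB3 fell by 0.98, 0.79 and 0.77 on the log2 scale, and CD68 (0.72) and LUM (0.85) rose. Their part in the results below was not tested. Between these populations, fewer cells expressing a gene and less RNA per cell cannot be told apart.

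HRG raised TIMP1, PLAU and SERPINE2 in both control populations, and PLAUR was called in NTC cells alone. In parental cells 3 of the 8 genes rose and none fell, against 2.86% of the 21042 probe sets called higher, and the 3 were TIMP1, PLAU and SERPINE2. In NTC cells these 3 and PLAUR rose, 4 of 8, against 2.64% called higher. The median change over the 8 genes was 0.34 in parental and 0.56 in NTC cells, while the median over all probe sets was -0.03 and 0.03. No member fell in either population, where 2.41% (parental) and 3.37% (NTC) of the probe sets were called lower.

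TIMP1 had the largest change of the 8 genes. Its levels in parental cells were 8.56, 8.91 and 8.94 without HRG and 10.50, 10.11 and 10.28 with it. In NTC cells they were 8.75, 8.60 and 9.01 without HRG and 10.39, 10.36 and 10.485 with it. The lowest of the 6 HRG arrays was above the highest of the 6 vehicle arrays by more than the whole range within either set. The change was 1.495 on the log2 scale (2.82-fold, SE 0.14, limma adjusted p = 4.28e-08) in parental cells and 1.63 (3.09-fold, SE 0.14, limma adjusted p = 1.23e-08) in NTC cells.

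PLAU, the urokinase gene, was at 5.47, 5.45 and 5.77 in parental cells and 5.60, 5.37 and 5.39 in NTC cells without HRG. With HRG it was at 6.30, 6.39 and 6.48 in parental cells and 6.10, 6.24 and 6.44 in NTC cells. All 6 HRG arrays were above all 6 vehicle arrays. The rise was 0.83 (1.77-fold, SE 0.11, limma adjusted p = 5.24e-06) in parental and 0.80 (1.75-fold, limma adjusted p = 6.93e-06) in NTC cells.

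Its receptor gene PLAUR moved less. PLAUR was at 6.01, 5.92 and 6.13 in parental cells without HRG and at 6.40, 6.34 and 6.66 with it, a change of 0.45 (1.37-fold, SE 0.10, limma adjusted p = 0.00118) that stayed under the fold threshold. In NTC cells it was at 5.87, 5.93 and 5.97 without HRG and at 6.33, 6.66 and 6.68 with it, a rise of 0.63 (1.55-fold, limma adjusted p = 3.17e-05). The NTC call lay close to the fold threshold: without replicate 2 or replicate 3 of NTC with HRG the change was 0.58 and 0.57, and without the 4 arrays that stood apart it was 0.57. The 2 populations did not differ in their response at the threshold used (difference 0.18, 95% interval -0.11 to 0.47, limma adjusted p = 0.653).

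SERPINE2, the serpin that inhibits urokinase, rose together with it. SERPINE2 was at 4.62, 4.74 and 4.75 in parental cells and 4.77, 4.56 and 4.31 in NTC cells without HRG. It was at 5.35, 5.33 and 5.50 in parental cells and 5.35, 5.64 and 5.39 in NTC cells with HRG, again with no overlap between the HRG and the vehicle arrays. The rise was 0.69 (1.62-fold, SE 0.13, limma adjusted p = 2.67e-04) in parental and 0.91 (1.88-fold, limma adjusted p = 1.06e-05) in NTC cells. These levels are near the dim end of the arrays, and the mean of this probe set over all arrays, 4.90, lay below the 25% quantile of the symbol probe sets (5.08).

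**Figure D1:**
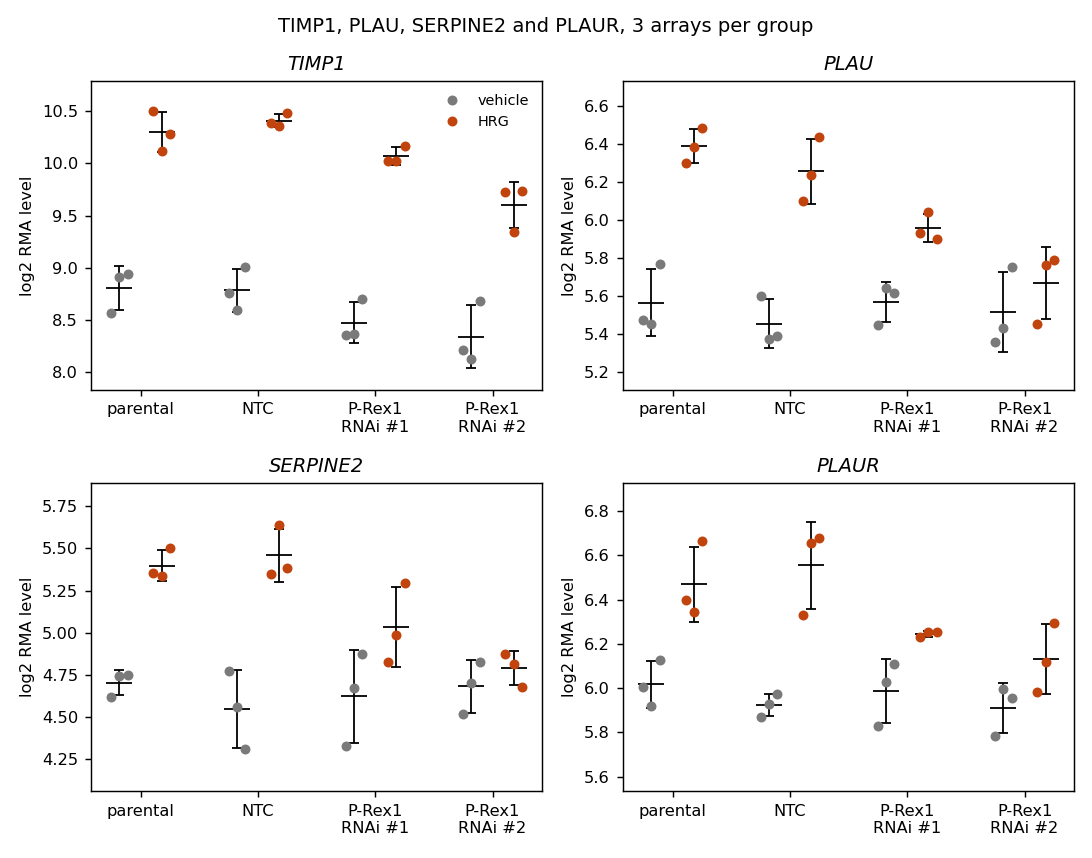
Log2 RMA levels of TIMP1, PLAU, SERPINE2 and PLAUR (y axes, each with its own range not starting at 0) in the 4 populations on the x axis (parental, NTC, P-Rex1 RNAi #1, P-Rex1 RNAi #2). Each dot is 1 array, grey for vehicle and orange for HRG, and the black bars are the mean and SD of 3 arrays. In parental and NTC cells all HRG arrays lie above all vehicle arrays for the 4 genes, whereas with P-Rex1 RNAi #2 the HRG and vehicle arrays overlap for PLAU, SERPINE2 and PLAUR but not for TIMP1.

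TIMP3 and PLAT shifted by less than 1.5-fold. On its brighter probe set TIMP3 was between 5.13 and 5.32 in parental vehicle arrays and between 5.44 and 5.47 with HRG, a change of 0.22 (limma adjusted p = 0.0431). In NTC cells it was at 5.15, 5.12 and 5.24 without HRG and at 5.55, 5.52 and 5.90 with it, a change of 0.49 (1.40-fold, limma adjusted p = 5.38e-05), and 0.37 without the replicate at 5.90. The other TIMP3 probe set had group means of 3.51 to 3.66, in the dimmest part of the arrays, and its changes with HRG were 0.03 in parental and 0.13 in NTC cells (limma adjusted p = 0.861 and 0.395), so the 2 probe sets did not give the same reading.

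PLAT was at 5.59, 5.55 and 5.65 in parental cells without HRG and at 5.69, 5.78 and 5.79 with it (0.16, limma adjusted p = 0.178). In NTC cells it was at 5.51, 5.55 and 5.57 without HRG and at 5.99, 5.64 and 6.05 with it (0.35, 1.28-fold, limma adjusted p = 0.00201). The 3 NTC arrays with HRG were uneven, with 1 close to the vehicle arrays.

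TIMP2 and TIMP4 did not pass in either population. TIMP2 was between 9.91 and 10.03 in the 6 control arrays without HRG and between 9.94 and 10.16 in the 6 with it, and its changes were 0.08 and 0.17 (limma adjusted p = 0.436 and 0.0542). TIMP4 was between 4.22 and 4.58 in all 24 arrays, around the 25% quantiles of the arrays (4.27 to 4.43). No comparison of TIMP4 passed the adjusted p, with changes of -0.16 to 0.16.

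A count of arrays, made without the model, is given next. Of the 8 genes, 5 (PLAU, PLAUR, SERPINE2, TIMP1 and the brighter TIMP3 probe set) had all 6 control arrays with HRG above all 6 without, against 11.7% of all probe sets. For each of these 5 the exact two-sided permutation test gave p = 0.00216, the smallest that 6 arrays against 6 allow. Arrays without overlap always give that value, so it repeats the count and adds no support to it. PLAT gave p = 0.00433 and TIMP2 p = 0.0152 in the same exact permutation test, with overlapping arrays, and TIMP4 p = 0.177. In all, 40 such tests were made, 5 for each gene, and their p-values are unadjusted.

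**Figure D2:**
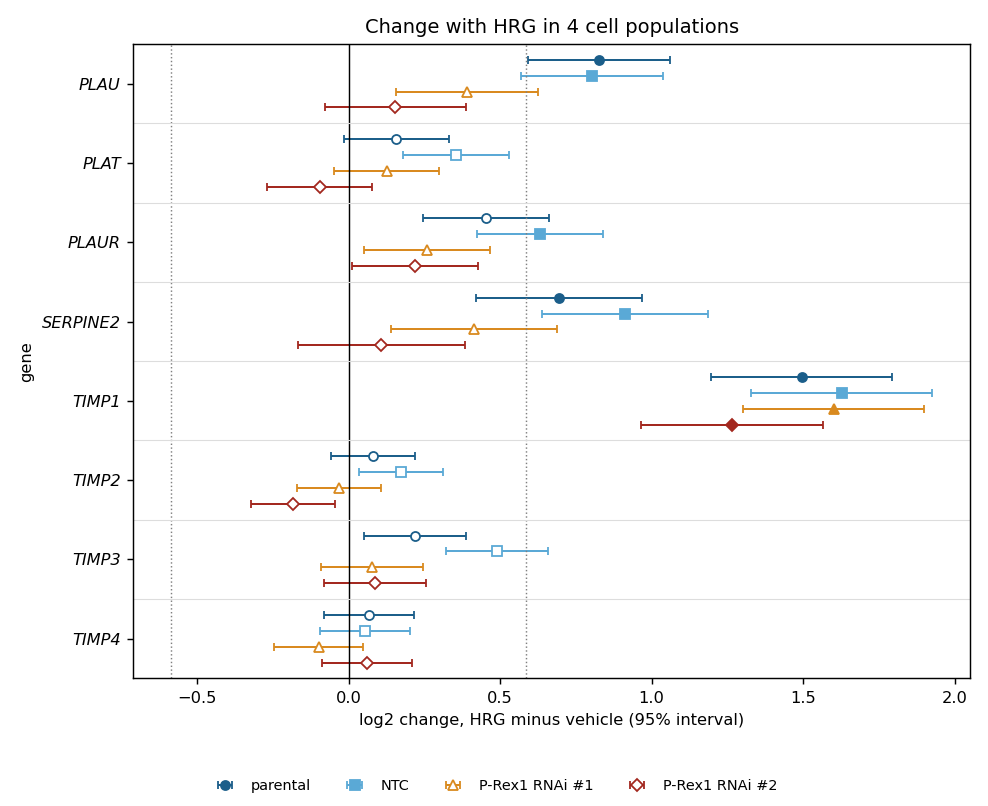
Log2 change with HRG against vehicle (x axis) for the 8 genes (y axis) in parental cells (circles), NTC cells (squares), P-Rex1 RNAi #1 cells (triangles) and P-Rex1 RNAi #2 cells (diamonds). Bars are 95% intervals from limma, filled symbols were called, and dotted lines mark a 1.5-fold change. TIMP1 is filled in all 4 populations, while PLAU and SERPINE2 are filled in the control populations and open in the silenced ones.

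In cells given P-Rex1 RNAi, TIMP1 rose after HRG with both duplexes, and no other member was called. With #1, 1 of 8 genes was called, against 2.52% of probe sets called higher, and with #2 it was also 1 of 8, against 1.07%. The median change over the 8 genes was 0.19 with #1 and 0.10 with #2.

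TIMP1 was at 8.35, 8.37 and 8.70 without HRG and at 10.03, 10.02 and 10.17 with HRG in P-Rex1 RNAi #1 cells, a rise of 1.60 (3.03-fold, SE 0.14, limma adjusted p = 3.06e-08). With #2 it was at 8.21, 8.12 and 8.68 without HRG and at 9.72, 9.35 and 9.74 with it, a rise of 1.27 (2.41-fold, limma adjusted p = 2.06e-06). The arrays with and without HRG did not overlap in either. The response with #1 differed from that in controls, the mean of parental and NTC cells, by 0.04 (95% interval -0.33 to 0.41, limma adjusted p = 0.922). The response with #2 differed by -0.29 (95% interval -0.66 to 0.07, limma adjusted p = 0.472). These intervals leave room for a loss of up to 0.66 with #2.

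PLAU was at 5.45, 5.64 and 5.62 without HRG and at 5.93, 6.04 and 5.90 with it in #1 cells. The change of 0.39 (1.31-fold, limma adjusted p = 0.0124) was under the fold threshold, although the 3 HRG arrays were above the 3 vehicle arrays. With #2 PLAU was at 5.36, 5.43 and 5.76 without HRG and at 5.45, 5.77 and 5.79 with it, so the arrays overlapped (0.15, 95% interval -0.08 to 0.39, limma adjusted p = 0.452). The HRG effect on PLAU was smaller with #2 than in controls (difference -0.66, SE 0.14, limma adjusted p = 0.00645), a called difference, and the difference with #1 was -0.43 (95% interval -0.71 to -0.14, limma adjusted p = 0.119).

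SERPINE2 gave a like pattern of values. With #1 it was at 4.33, 4.67 and 4.87 without HRG and at 4.83, 4.99 and 5.29 with it, which overlap (0.41, limma adjusted p = 0.0232, under the fold threshold). With #2 it was at 4.52, 4.70 and 4.82 without HRG and at 4.87, 4.82 and 4.68 with it (0.11, 95% interval -0.17 to 0.38, limma adjusted p = 0.707). The difference from the HRG effect in controls was -0.69 with #2 (SE 0.16, limma adjusted p = 0.0156), which was called, and -0.39 with #1 (limma adjusted p = 0.20).

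PLAU and SERPINE2 were thus the 2 of 8 genes called for a smaller HRG effect with #2, where 0.613% of all probe sets were called lower, and no member was called with #1, where 0.171% were called either way. Those shares are over all probe sets, with or without an HRG response. HRG called 1.73% of all probe sets either way with #2, against 3.67% with #1, 5.27% in parental and 6.01% in NTC cells. A smaller HRG response with #2 was therefore not particular to these members. The PLAU and SERPINE2 calls both depended on single arrays. Without replicate 3 of #2 vehicle, whose levels of PLAU and SERPINE2 were the highest of that group, the differences were -0.54 and -0.62 and neither was called. Without replicate 1 of #2 with HRG, PLAU was at -0.55 and not called. The SERPINE2 difference was -0.58 (limma adjusted p = 0.117) against parental cells alone and -0.67 (limma adjusted p = 0.0607) without the 4 arrays that stood apart, while that of PLAU without them was -0.73 (limma adjusted p = 0.00444).

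PLAUR was at 5.83, 6.03 and 6.11 without HRG and at 6.23, 6.25 and 6.25 with it in #1 cells (0.26, limma adjusted p = 0.0607). With #2 it was at 5.78, 6.00 and 5.96 without HRG and at 5.98, 6.12 and 6.30 with it (0.22, limma adjusted p = 0.161). The HRG effects on PLAUR differed from controls by -0.28 with #1 and -0.32 with #2, neither past the adjusted p (limma adjusted p = 0.217 and 0.171). For TIMP3 and PLAT the HRG changes in silenced cells lay between -0.10 and 0.13, and their differences from the effect in controls, -0.13 to -0.35, did not pass (lowest limma adjusted p = 0.0565, for PLAT with #2). The HRG effect with #2 was not shown to differ from that with #1 for any member (differences -0.33 to 0.16, limma adjusted p of 0.703 or more), although 0.0618% of all probe sets were called for that difference.

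The silenced cells were next compared with the controls at each treatment. Both duplexes were set against the same 6 control arrays, so the values of the 2 comparisons share those arrays. Without HRG no member was called with #1 (0.0285% of all probe sets called either way) or with #2 (0.181%). With HRG no member was called with #1 (0.185%), and 4 of 8 fell with #2 (0.893% called lower), namely TIMP2, TIMP1, PLAU and SERPINE2. The median change over the 8 genes with HRG was -0.25 with #1 and -0.51 with #2, beside a median of 0.00 and 0.01 over all probe sets.

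In HRG-treated cells the PLAU level differed from that in controls by -0.66 with #2 (1.58-fold, SE 0.10, limma adjusted p = 5.32e-05) and by -0.37 with #1 (1.29-fold, limma adjusted p = 0.0296, under the fold threshold). SERPINE2 gave -0.64 with #2 (1.56-fold, SE 0.11, limma adjusted p = 4.04e-04) and -0.39 with #1 (limma adjusted p = 0.0495, under the fold threshold). TIMP1 gave -0.75 with #2 (1.69-fold, SE 0.13, limma adjusted p = 1.78e-04) and -0.28 with #1 (limma adjusted p = 0.218). The #2 values of PLAU and SERPINE2 rested partly on 1 array each: PLAU was at -0.55 without replicate 1 of #2 with HRG and SERPINE2 at -0.58 without replicate 3 of it, both under the fold threshold.

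Without HRG the same genes lay close to the controls, with differences from -0.00 to 0.06 for PLAU and SERPINE2 with either duplex. TIMP1 was the exception among the HRG-responsive members. It was -0.32 with #1 (95% interval -0.58 to -0.06, limma adjusted p = 0.297) and -0.46 with #2 (1.37-fold, limma adjusted p = 0.0448, under the fold threshold), and -0.63 without replicate 3 of #2 vehicle, which was called. The TIMP1 arrays of the silenced vehicle groups overlapped those of the controls, with 1 silenced array in each group at 8.68 or 8.70.

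In the count of arrays, 4 of 8 genes (PLAU, PLAUR, SERPINE2 and TIMP3) had all 3 HRG arrays of #1 below all 6 control arrays, against 4.59% of all probe sets. With #2, 6 of 8 did (those 4, TIMP1 and TIMP2), against 6.68% of all probe sets. The exact two-sided permutation test gave p = 0.0238 for each, the smallest that 3 arrays against 6 allow, which arrays without overlap always give. Without HRG it was 0 of 8 for #1, against 3.7%, and 1 of 8 for #2 (TIMP2), against 5.27%.

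**Figure D3:**
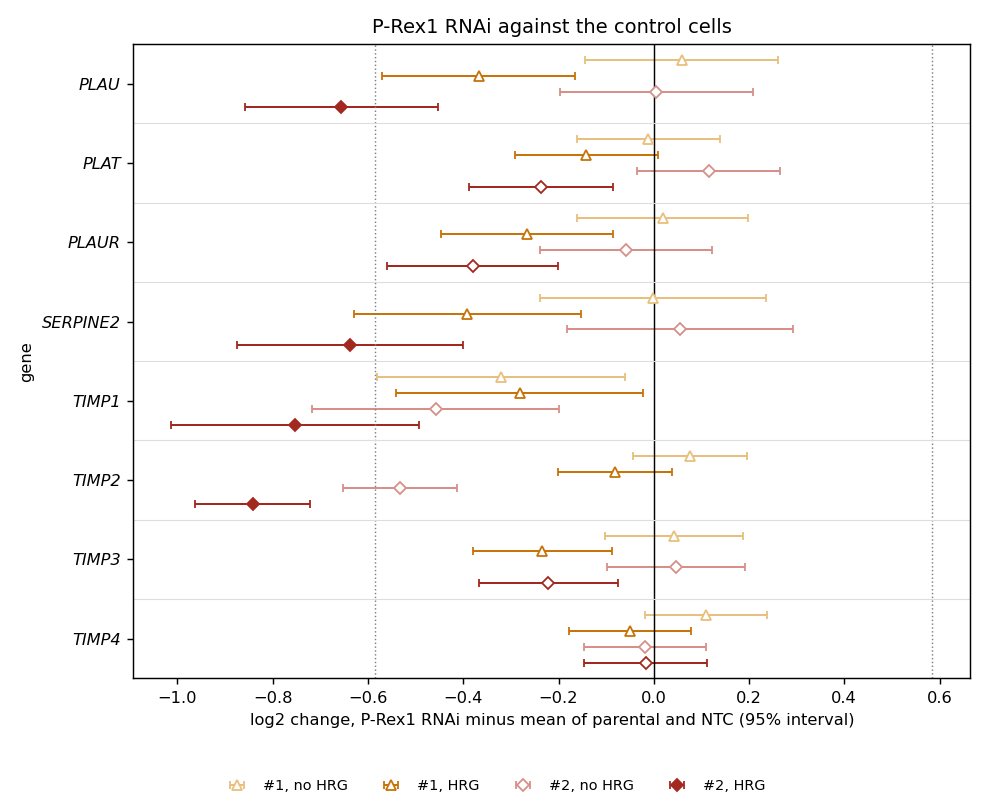
Log2 difference between P-Rex1 RNAi cells and the mean of parental and NTC cells (x axis) for the 8 genes (y axis), with #1 as triangles and #2 as diamonds, pale without HRG and dark with HRG. Bars are 95% intervals from limma, filled symbols were called, and dotted lines mark a 1.5-fold change. For PLAU and SERPINE2 only the HRG values are away from 0, whereas TIMP2 with #2 is low in both treatments.

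TIMP2 was the member on which the 2 duplexes parted. It was at 9.40, 9.34 and 9.55 with #2 without HRG and at 9.25, 9.22 and 9.27 with #2 and HRG. With #1 it was at 10.02, 9.93 and 10.17 without HRG and at 9.97, 9.98 and 10.07 with it, within the range of the controls or just above it. All 6 arrays of #2 were below the other 18 arrays, whose lowest TIMP2 level was 9.91.

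Against #1, TIMP2 with #2 was at -0.61 without HRG (1.53-fold, SE 0.07, limma adjusted p = 1.07e-05) and at -0.76 with HRG (1.70-fold, limma adjusted p = 3.05e-07), the single member called in either comparison, where 0.095% and 0.39% of all probe sets were called lower. Against controls it was at -0.53 without HRG (1.45-fold, limma adjusted p = 5.6e-06, under the fold threshold) and at -0.84 with HRG (1.79-fold, SE 0.06, limma adjusted p = 1.26e-09). The corresponding differences for #1 were 0.08 (95% interval -0.04 to 0.20) and -0.08 (95% interval -0.20 to 0.04). The call of #2 against #1 without HRG was lost with array medians set equal (-0.58), or without replicate 3 of #1 vehicle or replicate 2 of #2 vehicle (-0.54 and -0.56). PREX1 itself averaged 8.99 with #1 and 9.0 with #2 without HRG, and 8.53 with #1 and 8.73 with #2 with HRG. The latter difference was 0.20 (95% interval 0.05 to 0.36, limma adjusted p = 0.148). The part of PREX1 levels in the TIMP2 difference was not tested.

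The HRG changes of TIMP2 were small and differed in sign. The change was 0.08 and 0.17 in parental and NTC cells and -0.18 with #2 (95% interval -0.32 to -0.05, limma adjusted p = 0.0654). The difference between #2 and controls was -0.31 (limma adjusted p = 0.0335, under the fold threshold). LUM, the extracellular matrix proteoglycan gene lumican and 1 of the 10 fibroblast markers, was also lower with #2 than in controls in both treatments, by -1.29 and -1.01 on the log2 scale (limma adjusted p = 1.46e-07 and 7.44e-07). It was the only one of the 10 called in those comparisons, and its part in the TIMP2 difference was not tested.

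**Figure D4:**
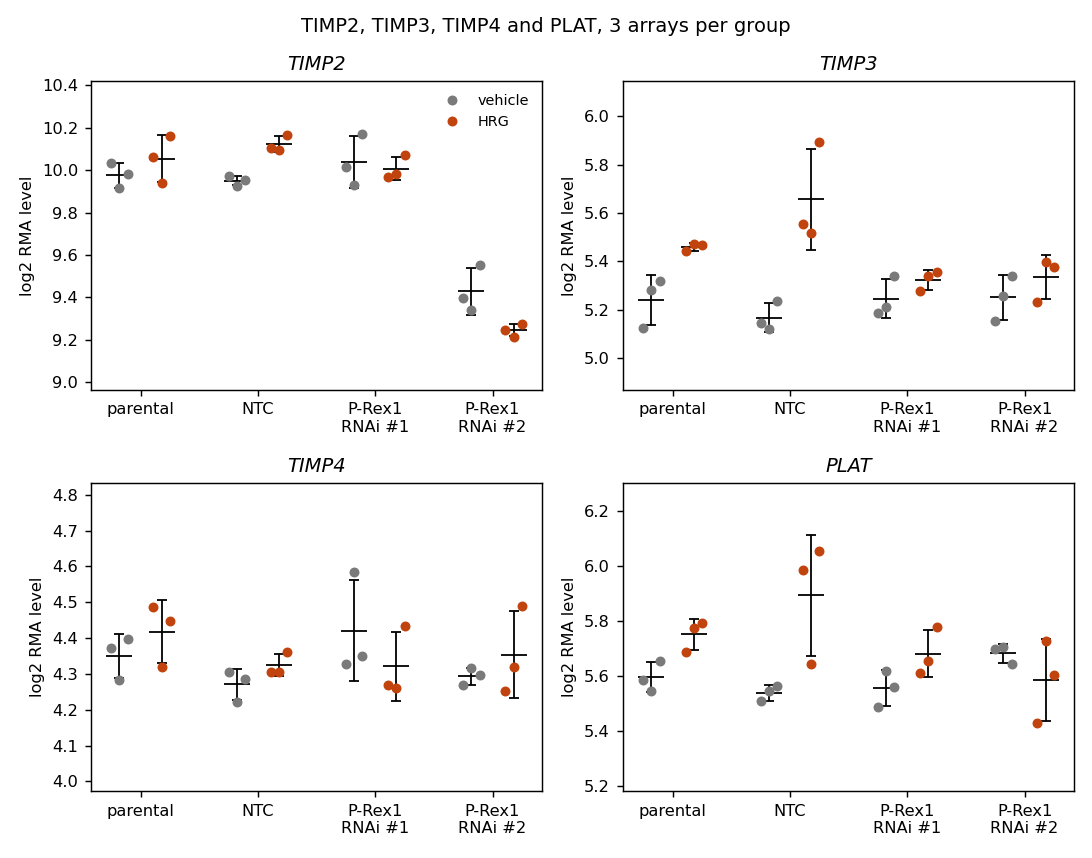
Log2 RMA levels of TIMP2, TIMP3 (brighter probe set), TIMP4 and PLAT (y axes, each with its own range not starting at 0) in the 4 populations on the x axis (parental, NTC, P-Rex1 RNAi #1, P-Rex1 RNAi #2). Each dot is 1 array, grey for vehicle and orange for HRG, and the black bars are the mean and SD of 3 arrays. The 6 TIMP2 arrays of P-Rex1 RNAi #2 lie between 9.22 and 9.55, below all others, and TIMP4 overlaps across all groups.

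The order of the group means showed how the populations lined up for each gene. For PLAU the order was parental with HRG (6.39), NTC with HRG (6.26), #1 with HRG (5.96), #2 with HRG (5.67), and then the 4 vehicle groups between 5.46 and 5.57. The 3 arrays of #1 with HRG overlapped with neither neighbour, whereas #2 with HRG overlapped with the vehicle groups. For TIMP1 the order was NTC (10.41), parental (10.30), #1 (10.07) and #2 (9.60) with HRG, and then the vehicle groups in the order parental (8.80), NTC (8.78), #1 (8.47) and #2 (8.34). Only #2 with HRG was clear of both neighbours there. For SERPINE2 the control groups with HRG (5.46 and 5.40) were clear of #1 with HRG (5.04), which overlapped with #2 with HRG (4.79). Between parental and NTC cells no member was called without or with HRG, where 0% of all probe sets were called by limma and 5.72% and 9.65% had an unadjusted p under 0.05. TIMP3 was among the latter with HRG, where its 3 NTC arrays lay above the 3 parental arrays (difference 0.20, limma adjusted p = 0.463), and the HRG effect on TIMP3 in NTC minus that in parental cells, 0.27, also had an unadjusted p under 0.05 (limma adjusted p = 0.603).

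The wider pathway was followed in lists of related genes. Of 13 genes for plasminogen and its binding and uptake partners, 1 rose with HRG in parental and in NTC cells and none fell, with list medians of 0.03 and 0.08, and 2.86% and 2.64% of all probe sets called higher. With P-Rex1 RNAi 3 of the 13 rose with #1 (2.52% of all probe sets) and 1 with #2 (1.07%). The gene that rose in both control populations was LYPD3, which encodes a cell surface protein related to the urokinase receptor. LYPD3 averaged 8.76 (SD 0.15) in parental cells without HRG and 9.61 (SD 0.08) with it, and 8.38 (SD 0.13) and 8.75 (SD 0.15) with #2. Its HRG changes were 0.86, 0.94, 0.62 and 0.38 in parental, NTC, #1 and #2 cells, the first 3 of them called, and its HRG effect with #2 differed from controls by -0.52 (limma adjusted p = 0.00924, under the fold threshold). The others were LRP8 and VLDLR, receptors of the lipoprotein receptor family, which are named here after their values were seen. LRP8 had HRG changes of 0.49, 0.53, 0.74 and 0.88 in parental, NTC, #1 and #2 cells, the last 2 of them called, and VLDLR had 0.47, 0.55, 0.77 and 0.45, called with #1 alone.

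Among 13 serine proteases linked to plasminogen activation and its relatives, 1 rose and 2 fell in parental cells, where 2.86% and 2.41% of all probe sets were called higher and lower, and 1 rose in NTC cells, where 2.64% were called higher. PRSS23, a secreted serine protease, was the gene that rose in both, by 1.08 and 0.93, from 5.08 (SD 0.12) to 6.16 (SD 0.08) in parental cells. Its change was 0.66 with #1, also called, and 0.34 with #2, and its HRG effect with #2 was smaller than in controls (-0.66, limma adjusted p = 7.6e-04). The 2 that fell in parental cells were MST1 and KLK10, and neither was called in NTC cells (-0.08 and -0.35). Of 11 other inhibitors of plasminogen activators, plasmin and metalloproteinases, none was called in parental cells and 1 fell in NTC cells, SERPINI1, the gene of the neuronal serpin neuroserpin, at -0.68 (limma adjusted p = 0.00114), beside 3.37% of all probe sets called lower there.

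The metalloproteinases that the TIMPs inhibit gave the largest changes. Of 29 such genes 3 rose and none fell with HRG in parental cells, and 2 rose and 1 fell in NTC cells, while the list medians were 0.00 and 0.07. The shares of all probe sets were 2.86% higher in parental cells and 2.64% higher and 3.37% lower in NTC cells. MMP10 and MMP1, a stromelysin and the interstitial collagenase, rose in both. The study followed MMP10 because of these same arrays, so its values are not independent evidence for the list. MMP1 averaged 3.94 (SD 0.12) without and 6.11 (SD 0.0011) with HRG in parental cells, and its HRG changes were 2.17, 2.00, 1.47 and 0.20 in parental, NTC, #1 and #2 cells. MMP10 averaged 4.23 (SD 0.12) without and 6.64 (SD 0.31) with HRG in parental cells, with changes of 2.41, 2.51, 1.78 and 0.43. Both parental means without HRG lay below 4.27, the lowest 25% quantile of any array, so these changes start from a dim level. The paper could not detect MMP10 by qPCR in unstimulated T-47D cells.

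For MMP1 the HRG effect was smaller than in controls with both duplexes, by -0.61 with #1 (limma adjusted p = 0.0321) and -1.88 with #2 (limma adjusted p = 4.53e-08). It was also smaller with #2 than with #1 (-1.27, limma adjusted p = 0.00153). For MMP10 the difference was called with #2 (-2.03, limma adjusted p = 1.87e-05) and not with #1 (-0.67, limma adjusted p = 0.142). MMP13, another collagenase gene, was the third to rise in parental cells, and MMP16, a membrane-type metalloproteinase gene, was the one that fell in NTC cells (-0.76, limma adjusted p = 6.14e-05). TIMP1 thus rose by HRG in each of the 4 populations, while MMP1 and MMP10 rose in 3 and were not called with #2 (0.20 and 0.43).

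**Figure D5:**
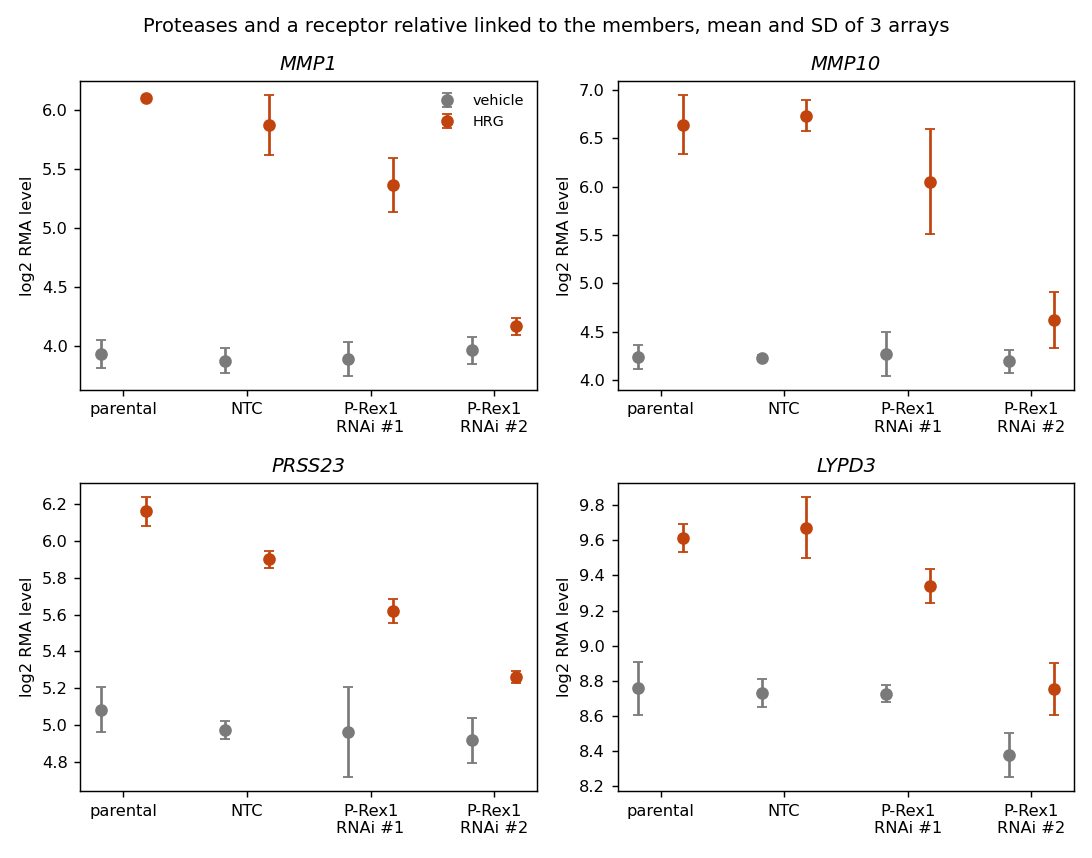
Log2 RMA levels (y axes, each with its own range not starting at 0) of the proteases MMP1, MMP10 and PRSS23 and the urokinase receptor relative LYPD3 in the 4 populations on the x axis (parental, NTC, P-Rex1 RNAi #1, P-Rex1 RNAi #2). Dots are means and bars SDs of 3 arrays, grey for vehicle and orange for HRG. The HRG means are highest in the control populations and lowest with P-Rex1 RNAi #2, where MMP1 is at 4.17 with HRG and 3.97 without.

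TIMP1, TIMP3 and TIMP4 lie within the bounds of the synapsin genes SYN1, SYN3 and SYN2 in the RefSeq annotation. None of the 3 synapsin genes was called in any comparison, and their median HRG change was -0.12 in parental and 0.09 in NTC cells. A link between the changes of TIMP1 and SYN1 was not tested.

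Over the 24 arrays, the genes whose levels followed most closely each member called by HRG in both control populations were found by Pearson correlation. These values are a description over arrays that share the HRG contrast. The arrays of #2 cells were among the 24, so the HRG changes of these genes with #2 follow largely from how they were picked. For TIMP1 they were TMC7 (r = 0.99), SAT1 (0.98), SPTSSB (0.98), GPRC5A (0.98) and CLIC6 (0.98), whose HRG changes were 0.96 to 1.68 in #2 cells. For PLAU they were SPSB1, DAPP1, SMAD3, LPCAT1 and CHD5 (r = 0.94 each), and for SERPINE2 EMP3 (0.93), LPCAT1 (0.92), EMP1 (0.92), ALOXE3 (0.91) and CALD1 (0.91). The HRG changes of these PLAU and SERPINE2 neighbours in #2 cells were 0.24 to 0.53, against 0.78 to 1.90 in parental and NTC cells. LPCAT1 stood in both sets, and no gene stood in the TIMP1 set and another.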

How the data were processed

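The authors hybridised 24 RNA samples to Affymetrix Human Gene 1.0 ST arrays and deposited log2 values after RMA background correction, quantile normalization and summarization. The version of the normalization software was not given in the sources used here. RMA makes the array distributions alike, so a change shared by most genes would be removed, and dim probe sets give compressed changes. Of 28536 probe sets, 21042 had a symbol. One limma fit (version 3.58.1, R 4.3.3) of all 24 arrays estimated the 8 group means, with Benjamini-Hochberg adjustment across the 21042 probe sets, and was tested on simulated data. Controls are the mean of parental and NTC cells. The Rank Products test of the study's methods was not used. Single probe sets were also compared by exact permutation tests (scipy 1.17.1). Same-numbered replicates were not treated as pairs. The number of arrays limits the precision.

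The members and gene lists were chosen with earlier results of these data known. The brightest probe set stood for a gene. From each list, genes called by HRG in control cells or by a difference in HRG effect are named (up to 6), and for members called by HRG in parental and NTC cells the 5 genes with the highest correlation. Alternatives were a replicate block, median centring, a filter on the dimmest 25%, all probe sets, an intensity trend, compared groups alone, no fold threshold, 1 control population alone and each array left out. Leaving out 4 arrays together, and the contrasts between the HRG effects of the 2 duplexes and of the 2 control populations, were added after the data were seen.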

Additional observations from a re-analysis of the deposited data

Results flagged for a closer look

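PLAU, SERPINE2 and TIMP2, 3 of the 8 genes, were flagged by the test of the difference in HRG effect between P-Rex1 RNAi #2 cells and controls. That test was limma's, adjusted over all symbol probe sets, of which 3.94% passed by the adjusted p alone. A smaller HRG response with #2 was not particular to these genes. HRG called 1.73% of all probe sets either way with #2, against 5.27% in parental and 6.01% in NTC cells. For PLAU the difference was -0.66 (adjusted p = 0.00645), for SERPINE2 -0.69 (adjusted p = 0.0156) and for TIMP2 -0.31 (adjusted p = 0.0335), the last under the fold threshold. With NTC cells alone as the control they were -0.65, -0.80 and -0.36 (limma adjusted p = 0.0286, 0.0199 and 0.045), and with parental cells alone -0.67, -0.58 and -0.26 (limma adjusted p = 0.0245, 0.117 and 0.171). With array medians set equal TIMP2 was at -0.29 (limma adjusted p = 0.0983).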

How the results depend on the processing

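Of the 17 member changes called, 11 kept their call under every alternative that gave them a value. None of the 552 alternative values turned its sign, but many of them could not. The block, the filter, the trend, all probe sets, compared groups alone and no fold threshold leave the log2 change itself unchanged. So does leaving out an array of a group that is not compared. The 11 were the HRG changes of TIMP1 in all 4 populations, those of PLAU and SERPINE2 in parental and NTC cells, the difference of TIMP1 and TIMP2 between #2 and controls with HRG, and that of TIMP2 between #2 and #1 with HRG. The 3 arrays per group and the dim signal of SERPINE2, TIMP4 and the second TIMP3 probe set limit the rest. The filter on the dimmest 25% of probe sets dropped these 3 probe sets.

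Counts of members called moved as follows, each given where it changed. Without the fold threshold the counts were larger, and so were the shares of all probe sets, given in brackets. For HRG they were 5 in place of 3 in parental cells (30.8%) and 6 in place of 4 in NTC cells (31.2%). For HRG with #1 the count was 3 in place of 1 (27.3%). Against controls without HRG it was 2 in place of 0 for #2 (3.35%). Against controls with HRG it was 2 in place of 0 for #1 (5.07%) and 7 in place of 4 for #2 (15%). For the HRG effect with #2 minus that in controls it was 3 in place of 2 (3.94%). With the filter, which drops SERPINE2, the counts were 2 for HRG in parental cells, 3 for HRG in NTC cells and 3 for #2 against controls with HRG. For the HRG effect with #2 minus that in controls the count was 2, and it was 1 after the filter on the dimmest probe sets, 1 with parental cells alone as control, and 1 without the 4 arrays that stood apart. For #2 against #1 without HRG it was 1, and 0 with array medians set equal. For HRG in NTC cells it was 3 in place of 4 with array medians set equal and without the 4 arrays that stood apart. With each array left out in turn these counts ranged from 0 to 2 for the HRG effect with #2 minus that in controls, from 0 to 1 for #2 against #1 without HRG, from 3 to 4 for HRG in NTC cells and for #2 against controls with HRG, and from 0 to 2 for #2 against controls without HRG, the last when replicate 3 of #2 vehicle was left out (TIMP1 -0.63, TIMP2 -0.59). Apart from the filter, which removes SERPINE2, and the left-out arrays, the cause was not tested.

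The replicate number was also fitted as a block. Same-numbered arrays of different groups correlated in their deviations with a mean r of 0.19, from -0.29 to 0.56. For 21 of 24 arrays the mean correlation with arrays of other groups was highest for their own number. The labels give replicate numbers and state no shared batch, so the numbers were not taken as pairs in the main fit. The replicate block changed no call of a member (PLAU with #2 minus controls -0.66, limma adjusted p = 0.00114), and over all probe sets it moved the calls for the HRG effect with #1 minus that in controls from 36 to 57.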
